A study of Mus musculus with 8 samples.

Results

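The 10 genes described here are Nfkbia, Nfkbiz, Tnfaip3, Tnip1, Birc3, Nfkb1, Nfkb2, Relb, Icam1 and Vcam1, which are feedback regulators, subunits and adhesion-molecule targets of the transcription factor NF-κB. They were chosen by name, and all 10 were found among the 24930 gene symbols of the deposited expression table. RNA was measured by poly-A sequencing in mouse intestinal stromal cells with a low level of the receptor Pdgfra. Of the 8 libraries, 3 came from stromal cells grown without enteroids (mesenchyme only), 3 from cocultures with wild-type enteroids of the duodenum, and 2 from cocultures with enteroids that have gain-of-function β-catenin (BcatGOF). In the cocultures 50000 stromal cells were plated per 20 µl Matrigel droplet and kept for 7 days without EGF, R-spondin1 and Noggin. The cells were then dissociated with TrypLE and sorted as GFP-positive, DAPI-negative cells. The labels name neither the allele that carries GFP, the driver of the β-catenin change, the age of the mice, nor the seeding number and culture time of the cells grown alone, and they do not say whether replicates came from separate mice or cultures. P-values therefore measure the spread between these libraries, which may be technical in part.

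NF-κB is a family of dimeric transcription factors that inhibitor proteins hold in the cytoplasm until a signal from a TNF, interleukin-1 or Toll-like receptor has the inhibitor destroyed. Many of the genes NF-κB switches on encode its own brakes, among them the inhibitor IκBα (Nfkbia) and the ubiquitin-editing enzyme A20 (Tnfaip3), so their transcripts are widely used as readouts of recent NF-κB activity. A second, slower branch, set off by receptors such as the lymphotoxin-β receptor and CD40, works through the subunits encoded by Nfkb2 and Relb. In stromal cells of the gut, NF-κB is known for driving chemokines and the adhesion molecules ICAM-1 and VCAM-1, which leukocytes bind through integrins.

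The stretches of promoter below are shown because they hold letters matching the κB consensus, the site NF-κB dimers bind, in genes whose levels are described next. They come from RefSeq on build GRCm38.p6, as windows reaching from 250 bases before the start of the gene to 50 after it. Windows were matched for 6 of the 10 genes, with 2 for Tnfaip3 and 3 for Nfkb2; Nfkbiz, Nfkb1, Relb and Vcam1 were not matched. Each line gives the 150 bases before the start, 5′ to 3′ on the gene's own strand, and the capitals mark matches to the 10-letter κB consensus on either strand.
Nfkbia, chr12:55492648-55492797, minus strand: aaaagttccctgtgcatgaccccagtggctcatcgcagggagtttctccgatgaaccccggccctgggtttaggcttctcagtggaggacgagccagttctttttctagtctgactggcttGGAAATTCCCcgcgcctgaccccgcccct
Tnfaip3, chr10:19015411-19015560, minus strand: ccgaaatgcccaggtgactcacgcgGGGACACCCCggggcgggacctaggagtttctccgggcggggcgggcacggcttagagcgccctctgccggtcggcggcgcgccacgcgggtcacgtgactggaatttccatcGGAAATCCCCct
Tnip1, chr11:54962941-54963090, minus strand: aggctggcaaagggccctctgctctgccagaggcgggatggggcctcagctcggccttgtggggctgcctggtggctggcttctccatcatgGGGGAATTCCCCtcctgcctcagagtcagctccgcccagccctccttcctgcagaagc
Nfkb2, chr19:46304587-46304736, plus strand: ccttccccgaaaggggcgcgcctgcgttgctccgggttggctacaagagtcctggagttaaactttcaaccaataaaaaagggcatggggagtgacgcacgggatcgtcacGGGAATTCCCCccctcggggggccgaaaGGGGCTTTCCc
The match in Nfkbia lay 29 to 20 bases before the start, on the opposite strand. Tnfaip3 held a match 12 to 3 bases before the start on the opposite strand, and one 125 to 116 bases before it that reads as a match on both strands. In Tnip1 and in Nfkb2 a palindromic stretch gave 4 and 3 overlapping matches over both strands, and Nfkb2 held a further match 11 to 2 bases before the start. The other window of Tnfaip3 held 0 matches, and the other windows of Nfkb2 held 2 and 1. No match was found in the windows of Birc3 and Icam1. Bases after the start were found in an annotated transcript of the gene for every window except those of Tnip1 and Icam1. The starts used for Tnip1 and Icam1 are therefore less certain. A match was held by 8.46% of the 32851 windows of 300 bases that RefSeq gave, and by 9.55% of the 27025 genes, and the matches say nothing of binding in these cells.

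Expression is given in FPKM, which by its name is fragments scaled by transcript length and library size, so levels are set side by side between genes. How the deposited values were scaled is not stated. The files hold no read counts. The smallest steps between low values placed the depth of each library at 0.8 to 1 times that of mesenchyme-only replicate 1, and the absolute depth is unknown. Column totals ran from 438585 to 598384 FPKM. The library of BcatGOF replicate 2 held the highest value of all 8 libraries in 22.7% of the 12927 tested genes, against 8% to 14.7% for the others. It held the lowest value in 22.3%, near the 21.9% of mesenchyme-only replicate 3, against 6.69% to 13.2% for the rest. Fitted values of the 10 genes and of the main gene lists in BcatGOF coculture against cells grown alone are therefore also given without BcatGOF replicate 2. Replicate 2 of each group carried the female transcript Xist (27.2 to 34.9 FPKM), while replicates 1 and 3 carried the Y-linked Ddx3y (15.8 to 20.8 FPKM). Fibroblast markers were present in all 8 libraries, but BcatGOF replicate 2 was the lowest library for 6 of 10 of them and the highest for 3. Pdgfra was at 52.4 FPKM there and at 86.5 to 134.4 FPKM in the other 7 libraries, and the collagen gene Col3a1 at 758.5 FPKM against 1831 to 4892 FPKM. The matrix proteoglycan Dcn was at 5673 FPKM there against 2716 to 3441 FPKM. The part of this shift in the values of the 10 genes was not tested.

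Among the 10 genes Vcam1, Nfkbiz and Nfkbia had the highest mean levels in every group. In cells grown alone Vcam1 stood at 130.4 ± 31.3 FPKM (SD, n = 3), Nfkbiz at 116.4 ± 39.5 FPKM and Nfkbia at 112.8 ± 49 FPKM, and their ranges overlapped, so their order was not resolved. Next came Tnip1 at 27.7 ± 5.51, Nfkb2 at 25.9 ± 1.96, Relb at 21.7 ± 3.75 and Nfkb1 at 21.4 ± 1.5 FPKM, where the range of Nfkb1 lay below those of Tnip1 and Nfkb2 and the other ranges overlapped. Icam1 at 15.5 ± 7.29, Birc3 at 11.4 ± 1.68 and Tnfaip3 at 8.8 ± 5.8 FPKM were lowest, with overlapping ranges. In wild-type coculture the order of means was headed by Nfkbiz, and in BcatGOF coculture by Nfkbia, again with overlapping ranges of the top 3 genes. All 10 genes passed the filter of at least 1 FPKM in at least 2 libraries.

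**Figure D1:**
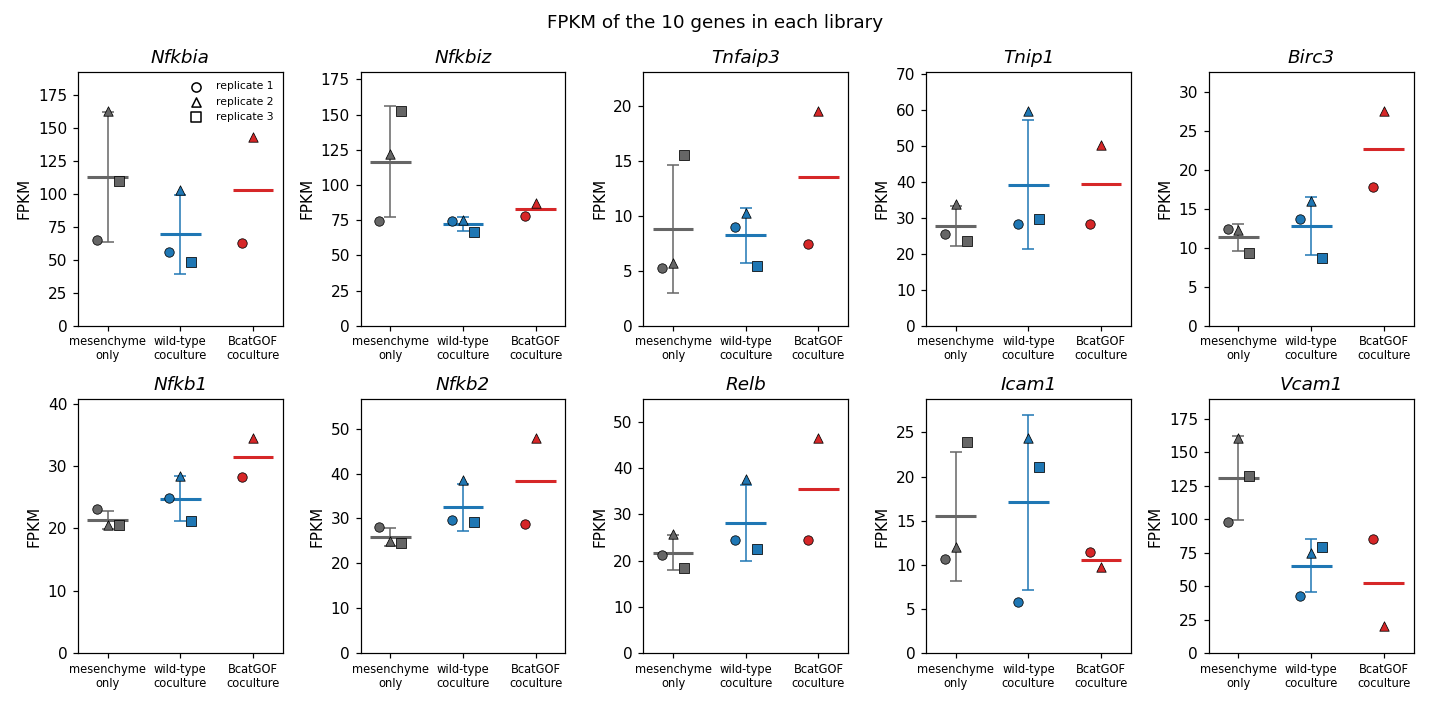
FPKM of each of the 10 genes (y axis, linear and from 0) in the 3 groups (x axis). Points are libraries, with the marker giving the replicate number, thick lines are group means and error bars are SD where the group has 3 libraries. Vcam1 is lower in all 5 cocultures than in the 3 libraries of cells grown alone, and BcatGOF replicate 2 holds the highest Tnfaip3, Birc3, Nfkb1, Nfkb2 and Relb.

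The inhibitors are described one by one, and differences between them were not tested. Nfkbia, which encodes the inhibitor that binds NF-κB dimers, was at 65.3, 163 and 109.9 FPKM in mesenchyme-only replicates 1, 2 and 3. It was at 55.9, 103 and 48.6 FPKM in the wild-type cocultures and at 63.0 and 143 FPKM in the BcatGOF cocultures. Replicate 2 was the highest library in each of the 3 groups, and the groups overlapped. The fitted log2 fold change over cells grown alone was -0.68 (SE 0.45) in wild-type and -0.15 (SE 0.51) in BcatGOF coculture (adjusted p = 1 and adjusted p = 0.99, limma with Benjamini-Hochberg adjustment). The BcatGOF value was -0.735 without BcatGOF replicate 2 and turned to 0.44 without BcatGOF replicate 1. Relative to the same-numbered library of cells grown alone, Nfkbia was lower in all 3 wild-type libraries, at 0.857, 0.632 and 0.442 times its level, and in both BcatGOF libraries, at 0.964 and 0.878 times. In a bulk library, fewer expressing cells and less RNA per cell cannot be told apart.

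Nfkbiz encodes a nuclear member of the inhibitor family that works as a cofactor at selected NF-κB targets. Its level was 74.5, 122 and 153 FPKM in cells grown alone, 74.6, 75.3 and 66.3 FPKM in wild-type coculture and 77.9 and 87.5 FPKM in BcatGOF coculture. The 5 coculture libraries lay close together near the lowest mesenchyme-only library, and both BcatGOF values were above all 3 wild-type values. The log2 fold change was -0.63 (SE 0.26) in wild-type and -0.43 (SE 0.29) in BcatGOF coculture (adjusted p = 1 and adjusted p = 0.938, limma), and the latter was -0.51 without BcatGOF replicate 2 and -0.72 to -0.205 over all libraries left out in turn. Over the library of the same number the replicate 1 cocultures were at 1 and 1.05 times the level of cells grown alone, while wild-type replicates 2 and 3 were at 0.618 and 0.434 times and BcatGOF replicate 2 at 0.718 times.

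Mesenchyme-only replicate 3, the highest library for Nfkbiz, also had the highest sum of 20 immediate early and dissociation genes. Many of these respond within minutes to serum, stress or dissociation, and the list also holds heat-shock genes. The summed level of the 20 genes was 1501 to 5344 FPKM in cells grown alone. It was 1288 to 2115 FPKM in wild-type and 1226 to 1891 FPKM in BcatGOF coculture. In each comparison with cells grown alone 18 of 20 were lower, with medians of -0.67 and -0.71 on the log2 scale, and 0 passed in limma, with 7 and 4 under an unadjusted p of 0.05 (8 and 6 with the replicate number as a block). Of all tested genes 4.9% and 5.5% were under it (10.3% and 7.84% with the block), and 53.8% and 52.4% were higher. Without BcatGOF replicate 2 the counts in BcatGOF coculture were 18 lower of 20 and 2 under an unadjusted p of 0.05. Egr1 reached 993 FPKM in mesenchyme-only replicate 3 and was at 193 to 448 FPKM in the other 7 libraries, and Junb, at 651 FPKM there, ranged from 228 to 622.5 FPKM elsewhere. The part of these genes in the values of Nfkbia and Nfkbiz was not tested.

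Tnfaip3, which encodes A20, an enzyme that edits ubiquitin chains on signalling proteins and so ends the response, was at 5.2, 5.71 and 15.5 FPKM in cells grown alone. It was at 8.96, 10.2 and 5.45 FPKM in wild-type coculture and at 7.42 and 19.5 FPKM in BcatGOF coculture. The highest values were those of BcatGOF replicate 2 and mesenchyme-only replicate 3, and all groups overlapped. Over the library of the same number it was higher in replicates 1 and 2 of the wild-type cocultures (1.72 and 1.79 times) and lower in replicate 3 (0.352 times), and it was at 1.43 and 3.42 times in BcatGOF replicates 1 and 2. In the fit, the log2 fold change was 0.024 (SE 0.47) in wild-type coculture, and in BcatGOF coculture it was 0.58 (SE 0.53) and turned to -0.067 without BcatGOF replicate 2.

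Tnip1 encodes ABIN1, a ubiquitin-binding partner of A20. It was at 25.5, 34.0 and 23.7 FPKM in cells grown alone, 28.4, 59.9 and 29.7 FPKM in wild-type coculture and 28.3 and 50.4 FPKM in BcatGOF coculture. Replicate 2 was the highest library of every group, and within each number the coculture libraries exceeded the cells grown alone, by 1.11 to 1.76 times. On the log2 scale the fold change was 0.42 (SE 0.34) in wild-type and 0.45 (SE 0.38) in BcatGOF coculture, and 0.045 in the latter without BcatGOF replicate 2.

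Birc3 encodes cIAP2, a ubiquitin ligase of the TNF receptor complex that also takes part in the turnover of the kinase NIK. It was at 12.4, 12.3 and 9.41 FPKM in cells grown alone, at 13.7, 16.0 and 8.74 FPKM in wild-type coculture and at 17.9 and 27.6 FPKM in BcatGOF coculture. Both BcatGOF libraries lay above the other 6. BcatGOF coculture had a log2 fold change of 0.92 (SE 0.28) over cells grown alone and 0.79 (SE 0.28) over wild-type coculture, and neither passed (adjusted p = 0.894 and adjusted p = 1, limma). Without BcatGOF replicate 2 the fold changes were 0.62 (SE 0.33) and 0.49 (SE 0.33) on that scale.

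The subunits differed in their spread between libraries. The highest library was at 1.69 times the lowest for Nfkb1 and 1.95 times for Nfkb2, but at 2.54 times for Relb. Nfkb1, the precursor of the subunit p50 of the classical dimer, was at 23.1, 20.5 and 20.5 FPKM in cells grown alone, 24.8, 28.4 and 21.1 FPKM in wild-type coculture and 28.3 and 34.5 FPKM in BcatGOF coculture. Both BcatGOF libraries exceeded all 3 libraries of cells grown alone, with a log2 fold change of 0.53 (SE 0.17, adjusted p = 0.894, limma). Without BcatGOF replicate 2 it was 0.39 (SE 0.21).

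Nfkb2, the precursor of the subunit of the slower branch, was at 28.1, 24.9 and 24.6 FPKM in cells grown alone, 29.7, 38.5 and 29.3 FPKM in wild-type coculture and 28.9 and 47.95 FPKM in BcatGOF coculture. Every coculture library exceeded every library of cells grown alone, although BcatGOF replicate 1 did so by 1.03 times over its same-numbered library. The log2 fold changes were 0.31 (SE 0.21) in wild-type and 0.51 (SE 0.24) in BcatGOF coculture (adjusted p = 1 and adjusted p = 0.894, limma), and the latter was 0.15 without BcatGOF replicate 2.

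Relb, which pairs with the Nfkb2 product, was at 21.2, 25.7 and 18.3 FPKM in cells grown alone, 24.6, 37.6 and 22.5 FPKM in wild-type coculture and 24.4 and 46.5 FPKM in BcatGOF coculture. Replicate 2 was the highest in each group. Its log2 fold changes were 0.34 (SE 0.29) and 0.62 (SE 0.32), the latter 0.17 without BcatGOF replicate 2. Over the library of the same number Relb was at 1.16, 1.46 and 1.23 times in wild-type and at 1.15 and 1.81 times in BcatGOF coculture.

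The adhesion molecules parted from the subunits and from each other. Vcam1, a ligand of leukocyte integrins that marks many fibroblasts, was at 98.2, 161 and 132 FPKM in cells grown alone. It was at 42.3, 74.6 and 78.9 FPKM in wild-type coculture, and at 84.8 and 19.9 FPKM in BcatGOF coculture. All 5 coculture libraries lay below the lowest library of cells grown alone, and the BcatGOF libraries lay on either side of the wild-type range. The log2 fold change over cells grown alone was -1.01 (SE 0.51) in wild-type and -1.6 (SE 0.57) in BcatGOF coculture (adjusted p = 1 and adjusted p = 0.894, limma).

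Within replicate numbers Vcam1 was at 0.431, 0.464 and 0.596 times its level in cells grown alone in wild-type replicates 1, 2 and 3, and at 0.864 and 0.124 times in BcatGOF replicates 1 and 2. BcatGOF replicate 1 thus held 2 times and replicate 2 held 0.267 times the Vcam1 of the wild-type coculture of the same number. Without BcatGOF replicate 2 the log2 fold change over cells grown alone was -0.59 (SE 0.42). Without BcatGOF replicate 1, with the lone library assumed to vary like the other groups, it was -2.62 (SE 0.41, adjusted p = 0.0379, limma) and passed. In that fit 0.726% of 12814 genes passed as lower, and Vcam1 was the only one of the 10 genes to pass in either direction.

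Icam1, whose product binds the integrins of leukocytes, was at 10.6, 12.02 and 23.9 FPKM in cells grown alone. It was at 5.82, 24.4 and 21.1 FPKM in wild-type coculture and at 11.45 and 9.7 FPKM in BcatGOF coculture. The groups overlapped, and the highest and the lowest of the 8 libraries both belonged to wild-type coculture. Its fitted log2 fold change was 0.0067 (SE 0.51) in wild-type, turning to -0.0079 at a pseudocount of 0.1. In BcatGOF coculture it was -0.43 (SE 0.57), -0.14 with the replicate number as a block, -0.32 without BcatGOF replicate 2 and -0.64 to -0.092 over all libraries left out in turn. BcatGOF over the wild-type coculture of the same number was 1.97 times in replicate 1 and 0.398 times in replicate 2, in the same directions as for Vcam1.

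**Figure D2:**
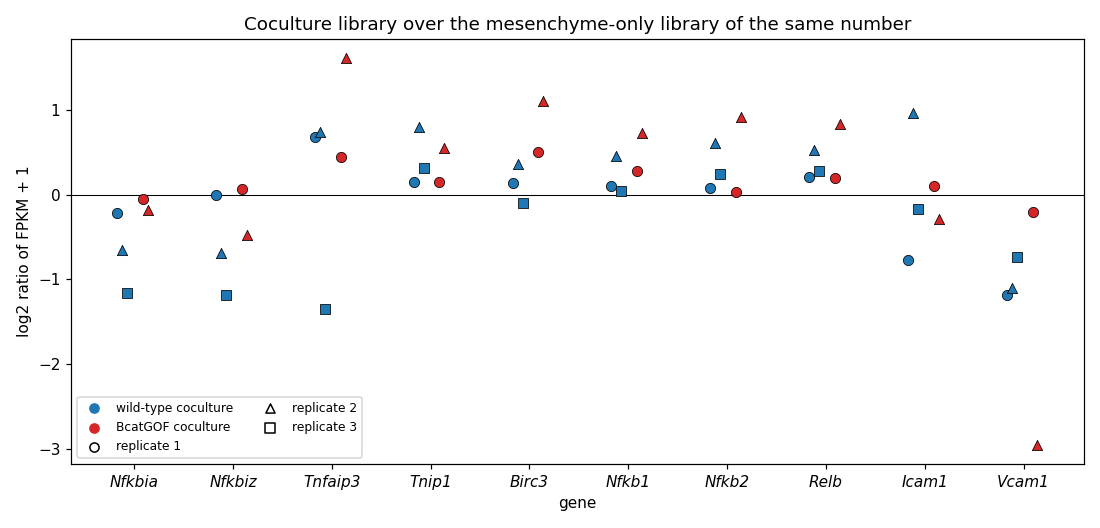
Log2 ratio of FPKM + 1 (y axis) of each coculture library over the mesenchyme-only library with the same replicate number, for the 10 genes (x axis); colour gives the coculture and marker the replicate number. Tnip1, Nfkb1, Nfkb2 and Relb lie above 0 in both cocultures and Nfkbia and Vcam1 below, and BcatGOF replicate 2 gives the lowest Vcam1 ratio, at -2.95.

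None of the 10 genes passed in any of the 3 comparisons at an adjusted p of 0.05 in limma, against 1 gene of 12927 (0.00774%) in each comparison with cells grown alone and 0 genes (0%) between the cocultures. With the replicate number as a block none of the 10 passed either, with 2 genes (0.0155%) passing for wild-type coculture over cells grown alone, 1 (0.00774%) for BcatGOF and 0 between the cocultures. At an unadjusted p of 0.05, Nfkbiz was the 1 of the 10 genes under it for wild-type coculture over cells grown alone, where 4.9% of all genes were, and with the block they were Nfkbia, Nfkbiz and Tnip1, against 10.3% of all genes. For BcatGOF coculture over cells grown alone they were Birc3, Nfkb1 and Vcam1 (5.5% of all genes), and with the block Birc3, Nfkb1 and Relb (7.84%). Between the cocultures Birc3 was the only one, against 2.89% of all genes, and with the block again Birc3, against 5.03%.

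Some groups did not overlap. Wild-type coculture lay wholly above cells grown alone for Nfkb2, as for 6.35% of all genes, and wholly below for Vcam1, as for 5.61%. BcatGOF coculture lay wholly above cells grown alone for Birc3, Nfkb1 and Nfkb2 (8.49% of all genes) and below for Vcam1 (7.82%). It lay wholly above wild-type coculture for Nfkbiz and Birc3 (6.36% of all genes), and wholly below it for none of the 10 (7.64%).

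Both cocultures are compared with the same libraries of cells grown alone. In wild-type coculture 7 of the 10 genes were higher with a median log2 fold change of 0.079, where 53.8% of all genes were higher with a median of 0.019. In BcatGOF coculture 6 were higher with a median of 0.48, where 52.4% of all genes were higher with a median of 0.014. The count there was 5 of 10 and the median -0.011 without BcatGOF replicate 2, beside 52.3% of all genes and 0.014. Between the cocultures 8 were higher in BcatGOF with a median of 0.24, where 51.4% of all genes were higher with a median of 0.0077. Leaving out that library gave 4 of 10 with a median of -0.073, beside 49.3% of all genes and -0.0056. Over the library of the same number, Tnip1, Nfkb1, Nfkb2 and Relb were higher in all 3 wild-type libraries, as were 20.6% of all genes, and Nfkbia and Vcam1 were lower in all 3, as were 17.4%. In both BcatGOF libraries those 4 genes with Tnfaip3 and Birc3 were higher (28.9% of all genes), and Nfkbia and Vcam1 were lower (28.5%).

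**Figure D3:**
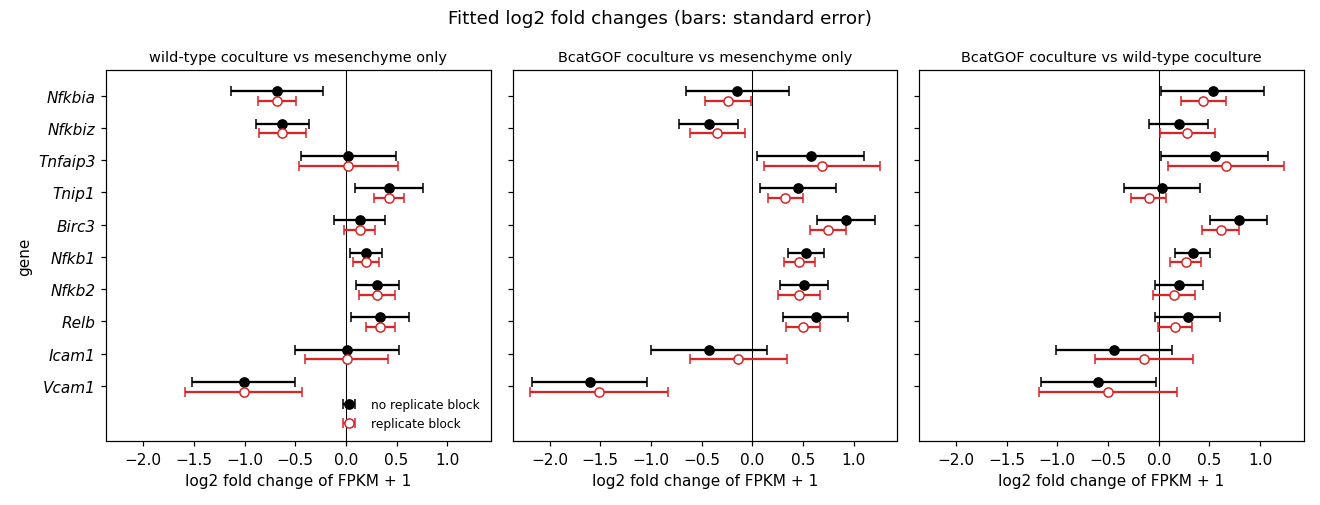
Fitted log2 fold change of FPKM + 1 (x axis) for the 10 genes (y axis) in the 3 comparisons, without (filled) and with (open) the replicate number as a block; bars are standard errors. The subunits and Birc3 lie to the right of 0 for BcatGOF coculture over cells grown alone, from 0.51 to 0.92 without the block, and Vcam1 lies at -1.6.

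The authors' deposited table of BcatGOF coculture against mesenchyme only holds 2184 genes, all with an adjusted p of at most 0.015. It lists 3 of the 10 genes. In the authors' deposited table Relb had a log2 fold change of 1.12 (SE 0.288, adjusted p = 0.00134) and Nfkb2 one of 0.985 (SE 0.215, adjusted p = 1.03e-04), and genes listed as higher were 3.71% of the symbols in the expression table. Vcam1 stood in the authors' deposited table at -2.9 (SE 0.334, adjusted p = 1.04e-15), and 5.05% of the symbols were listed as lower. The other 7 genes are not among those listed.

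These values lay near those of BcatGOF replicate 2. The log2 ratio of its FPKM to the mean of cells grown alone was 1.1 for Relb, 0.889 for Nfkb2 and -2.71 for Vcam1, against 0.166, 0.157 and -0.621 in BcatGOF replicate 1. Over the 1955 listed genes that were tested here, the fold changes of the authors' deposited table differed from the log2 ratio of FPKM + 1 by a median of 0.342 in BcatGOF replicate 2 and of 1.53 in replicate 1. The direction was opposite for 0 of these genes in replicate 2 and for 779 in replicate 1. The labels do not say which libraries and which model stand behind the authors' deposited table.

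**Figure D4:**
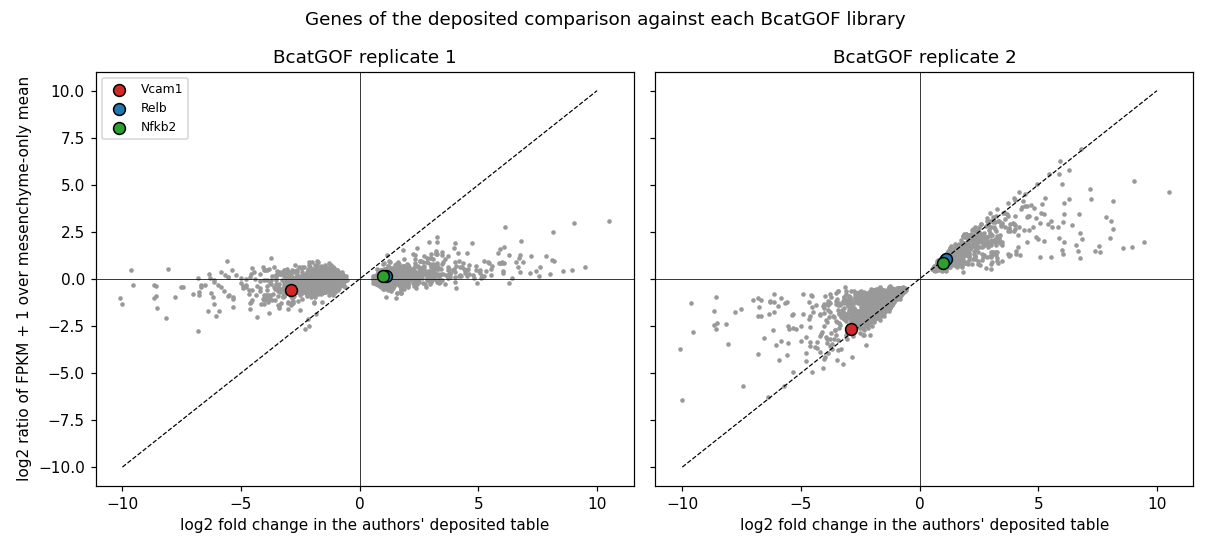
Log2 ratio of FPKM + 1 of BcatGOF replicate 1 (left) and replicate 2 (right) over the mean of cells grown alone (y axis) against the log2 fold change in the authors' deposited table (x axis), for the 1955 listed genes tested here; the dashed line marks equal values. Relb, Nfkb2 and Vcam1 (coloured) lie near the line in replicate 2 and near 0 on the y axis in replicate 1, where Vcam1 is at -0.62.

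Across the 8 libraries Birc3 and Nfkb1 had a Pearson r of 0.947 and a Spearman rho of 0.881, and the r was 0.889 without BcatGOF replicate 2. For Tnip1 and Relb r was 0.933 and rho 0.905 (r = 0.964 without that library), and for Nfkb2 and Relb 0.93 and 0.738 (r = 0.834). Vcam1 ran against Nfkb2, with a Pearson r of -0.849 and a rho of -0.952 (r = -0.589 without that library). These are descriptions over libraries that share groups and replicate numbers. Among 8997 other genes of at least 5 FPKM on average, the nearest patterns to Nfkbia by Pearson r were those of Tmem129 (0.945), Id3 (0.944) and Cebpd (0.937). For Vcam1 they were Rgs4 (0.971), C1ra (0.967) and Hsd3b7 (0.967), and for Icam1 Zdhhc24 (0.953), Clec16a (0.945) and Mul1 (0.94). C1ra was at 176 to 222 FPKM in cells grown alone, 118 to 141 FPKM in wild-type coculture and 168 and 55.25 FPKM in BcatGOF replicates 1 and 2.

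Of 36 other components of the pathway (kinases, adaptors, other subunits and inhibitors) 34 were tested and 0 passed in any comparison, with or without the replicate block, in limma. At an unadjusted p of 0.05 there were 2, 0 and 1 of them in the comparisons of wild-type and BcatGOF coculture with cells grown alone and with each other, and 4, 2 and 2 with the block. Of all tested genes 4.9%, 5.5% and 2.89% were under that p, and 10.3%, 7.84% and 5.03% with the block; these shares hold for each list that follows. The medians of the components were 0.029, 0.046 and 0.028 on the log2 scale, with 18, 20 and 18 of 34 higher, and 22 of 33 were higher in BcatGOF coculture than in cells grown alone without BcatGOF replicate 2. The most abundant were Bcl3, a nuclear inhibitor family member, and Rela, the activating subunit of the classical dimer. Rela ranged only from 41.8 to 55.15 FPKM over all 8 libraries, and Bcl3 was at 43.55 FPKM in BcatGOF replicate 2 and at 68.5 to 97.5 FPKM in the others. Nfkbid, also among the components tested, reached 1 FPKM only in cocultures, so the filter favoured its direction over cells grown alone.

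Of 13 receptors that feed into NF-κB 12 were tested and 0 passed, with 3, 1 and 1 under an unadjusted p of 0.05 and 5, 2 and 1 with the block. Tnfrsf1a, the main receptor of TNF, was at 214 to 233 FPKM in cells grown alone, 181 to 213 FPKM in wild-type and 217 and 146.5 FPKM in BcatGOF coculture. Ltbr, the lymphotoxin-β receptor, was at 133 to 150.5, 126 to 141, and 138 and 106 FPKM. Of the 12 receptors 4, 5 and 8 were higher in the 3 comparisons, and 8 of 12 were higher in BcatGOF coculture than in cells grown alone without BcatGOF replicate 2. Tnfrsf1a and Ltbr were both lowest in that library, which had the highest Nfkb2 and Relb. Other receptors of the list went the other way, with Cd40 (14.9 FPKM) and Il1rl1 (140 FPKM) highest there. The part of the receptors in the values of Nfkb2 and Relb was not tested.

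Of 30 other textbook NF-κB targets 26 were tested and 0 passed, with 3, 5 and 1 under an unadjusted p of 0.05 and 5, 7 and 5 with the block. In BcatGOF coculture 18 of 26 were higher than in cells grown alone, with a median of 0.74, against 13 of 26 and 0.012 in wild-type coculture, where 52.4% and 53.8% of all genes were higher. The direction turned without BcatGOF replicate 2, with 10 of 25 higher in BcatGOF coculture and a median of -0.12. With all libraries, Csf2 and Tnf were among those higher in both cocultures, and they reached 1 FPKM only in cocultures. The filter thus favoured their direction over cells grown alone, and their part in these counts is no test of it. Lcn2, an iron-binding protein of the acute response, was at 527, 3739 and 768 FPKM in cells grown alone, 877.5, 10200 and 1094 FPKM in wild-type coculture and 505 and 14890 FPKM in BcatGOF coculture, highest in replicate 2 of each group. Mmp9, a matrix protease, was at 143, 197 and 87.6 FPKM in cells grown alone, 998, 1687 and 716.5 FPKM in wild-type coculture and 198 and 3223 FPKM in BcatGOF coculture.

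Of 20 other adhesion molecules 14 were tested and 0 passed, with medians of 0.086, 0.012 and -0.057 in the 3 comparisons and 0, 1 and 1 under an unadjusted p of 0.05 (1, 3 and 0 with the block). In BcatGOF coculture 7 of 14 were higher than in cells grown alone, and 6 of 14 with a median of -0.024 without BcatGOF replicate 2. Thy1, a surface glycoprotein of fibroblasts, was at 30.0 FPKM in BcatGOF replicate 2 and at 118 to 191 FPKM in the other 7 libraries, so this library was lowest for it as for Vcam1. Nectin2, a cell junction molecule, was at 54.2 to 97.1 FPKM throughout. Of the 8 integrin chains listed as receptors for ICAM-1 and VCAM-1, 3 were tested and 0 passed, with 1, 0 and 1 under an unadjusted p of 0.05, the same counts as with the block. Itgb1 was at 191 to 313 FPKM, and Itga9, which pairs with it, at 5.6 to 9.93 FPKM in cells grown alone, 12.9 to 16.8 FPKM in wild-type coculture and 8.52 and 6.21 FPKM in BcatGOF coculture.

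RNA of other cell types was present to a degree that varied with the groups. The summed level of 15 epithelial markers was 5.91 to 8.06 FPKM in cells grown alone, 17.6, 8.86 and 127 FPKM in the wild-type cocultures in order of number, and 32.3 and 127 FPKM in BcatGOF replicates 1 and 2, and 0 to 5 of the markers were at 0 in a library. Krt8, a keratin of simple epithelia, was at most 0.085 FPKM in cells grown alone and at 35.4 FPKM in wild-type replicate 3 and 38.5 FPKM in BcatGOF replicate 2. These 2 libraries, which differ in group and replicate number, each had an epithelial sum of 127 FPKM. Their Vcam1 was 78.9 and 19.9 FPKM and their Relb 22.5 and 46.5 FPKM. The summed level of 12 leukocyte markers was 60.6 to 123 FPKM in cells grown alone, 27.1 to 116 FPKM in wild-type and 53.8 and 138 FPKM in BcatGOF coculture. It came mostly from Lyz2 and Cd14. Ptprc, which all leukocytes carry, was at most 0.051 FPKM and at 0 in 5 libraries, and Cd3e of T cells was at 0 in all 8. Other markers of the list were measurable, with Cd68 at 1.72 to 6.76 FPKM and Fcer1g at 0.635 to 5.26 FPKM. Tyrobp reached 1.85 FPKM in mesenchyme-only replicate 3, and Cd52 reached 2.33 FPKM in mesenchyme-only replicate 2. The sum of 10 markers of endothelium, which also expresses Icam1 and Vcam1, was 5.47 to 16.0 FPKM in all libraries, and Cdh5 was at most 0.114 FPKM. Egfl7 (1.74 to 13.55 FPKM) and Plvap (0.399 to 4.37 FPKM) held most of it. The 5 mesothelial markers summed to 4.3 to 21.1 FPKM in cells grown alone, 13.7 to 92.5 FPKM in wild-type and 16.6 and 55.6 FPKM in BcatGOF coculture, but they share Krt19 with the epithelial list, which alone was at 46.8 FPKM in BcatGOF replicate 2. The other 4 summed to 2.4 to 18.4, 7.05 to 50.4, and 5.75 and 8.79 FPKM, mostly Wt1 except in BcatGOF replicate 2, where Msln was at 5.45 and Wt1 at 3.29 FPKM. Of these markers 10 epithelial, 6 leukocyte, 2 endothelial and 3 mesothelial ones were tested, and none passed in limma. At an unadjusted p of 0.05 there were 2, 8 and 0 epithelial, 0, 0 and 0 leukocyte, 1, 0 and 0 endothelial and 0, 2 and 0 mesothelial markers in the 3 comparisons. Of 10 fibroblast markers 0 passed, with 1 in each comparison at that threshold. For both cocultures over cells grown alone this marker was Foxl1, at 0.214 to 0.22 FPKM in cells grown alone. The unadjusted count of epithelial markers in BcatGOF coculture over cells grown alone was 0 of 6 tested without BcatGOF replicate 2. Of these 5 were higher, with a median log2 fold change of 1.67. Msln, Foxl1 and most tested epithelial markers reached 1 FPKM only in cocultures. The filter thus fixed their direction over cells grown alone, and their counts are no test of it. The part of the epithelial and mesothelial RNA in the values of the 10 genes was not tested.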

How the data were processed

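FPKM of 24930 genes in 8 libraries is the form in which the authors gave expression. A second deposited table holds log2 fold changes with SE, a mean normalized level, a test score and p-values, raw and adjusted, for 2184 genes of BcatGOF coculture against mesenchyme only. Per the submitters' processing notes the tools included kallisto 0.46.1 and DESeq2 1.40.1 and the build was mm9, and their roles and the making of FPKM are not stated. Median ratios between the deposited FPKM columns were 1 to 1.01, so the alternative that scales by them hardly changed the values.

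Columns were matched to samples by title. The 12927 genes reaching 1 FPKM in 2 or more libraries were transformed as log2 of FPKM plus a pseudocount of 1, which shrinks the log2 fold changes of low genes. They were fitted with 3 group means in limma 3.58.1 (R 4.3.3; trend and robust options, 5 residual degrees of freedom), with two-sided p-values, Benjamini-Hochberg adjustment over all genes and a threshold of 0.05. Plots used matplotlib 3.10.9 (python 3.11.15).

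Deviations from the group means correlated at 0.301 to 0.554 between libraries of the same number (7 pairs) and at -0.483 to 0.208 between others (14 pairs). Deviations within a group sum to 0, so those of the BcatGOF libraries mirror each other. The pairs are therefore not independent, and part of this contrast is arithmetic. That the numbers pair the samples was an assumption of the block, since the labels do not say what a number marks. The block was an alternative, as were 2 pseudocounts, 2 filters, 2 normalizations, fits of 2 groups, plain variances and leaving out libraries.

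The 10 genes and the gene lists were chosen with earlier results of these data known. Named genes are the 10, the 2 most abundant tested genes of each list and the 3 genes most like Nfkbia, Icam1 and Vcam1. Others were picked once their values had been seen. They are Pdgfra, Xist and Ddx3y as library checks, Msln, Foxl1, Csf2, Tnf, Nfkbid, Cd68, Fcer1g, Tyrobp, Cd52, markers named at or near 0, and Cd40 and Il1rl1. Counts of lists without BcatGOF replicate 2 were added after seeing the data. The promoter windows are on GRCm38.p6 and were set against no coordinates of the files.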

Additional observations from a re-analysis of the deposited data

How the results depend on the processing

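None of the 10 genes passed in any comparison under the alternatives run, except Vcam1 for BcatGOF coculture over cells grown alone without BcatGOF replicate 1 (1 gene, log2 fold change -2.62), so leaving out a library gave 0 to 1 genes there. The count over all genes for wild-type coculture against cells grown alone was 1. It was 0 with a mean of at least 5 FPKM, 2 and 5 with the replicate block as a fixed and a random effect, 7 with the 2 groups alone, 9 without wild-type replicate 3 and BcatGOF replicate 2 together, and 1 to 9 with a library left out (7 without BcatGOF replicate 1, 9 without BcatGOF replicate 2). For BcatGOF coculture against cells grown alone it was 1, then 6 with no filter, 0 with a mean of at least 5 FPKM, 2 without those 2 libraries together, and 1 to 198 with a library left out (198 without BcatGOF replicate 1, 2 without wild-type replicate 2). Between the cocultures it was 0, then 4 with no filter. The replicate block changed no call of the 10 genes.

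Of the log2 fold changes of the 10 genes in the 3 comparisons, 536 values under the alternatives kept the direction and the side of the threshold, 1 newly passed and 33 changed direction, none of which passed. For Icam1 in wild-type coculture over cells grown alone the value was -0.0079 and -8.01e-04 at pseudocounts of 0.1 and 0.5, -0.040 with quantile normalization, -0.24 without wild-type replicate 3 and BcatGOF replicate 2 together, and -0.34 to 0.605 with a library left out. With a library left out the range in that comparison was -0.23 to 0.475 for Tnfaip3 and -0.0345 to 0.37 for Birc3. In BcatGOF coculture over cells grown alone it was -0.735 to 0.44 for Nfkbia and -0.067 to 1.22 for Tnfaip3, the latter at -0.067 without those 2 libraries together as well. Between the cocultures it was -0.0555 to 1.12 for Nfkbia, -0.091 to 1.2 for Tnfaip3, -0.38 to 0.44 for Tnip1, -0.155 to 0.56 for Nfkb2, -0.17 to 0.74 for Relb and -1.61 to 0.42 for Vcam1. Without those 2 libraries together these genes were at -0.27, -0.33, -0.53, -0.22, -0.31 and 0.58, and Tnip1 was at -0.097 and -0.052 with the replicate block as a fixed and a random effect. The cause of these changes was not tested. With 2 or 3 libraries a group and no read counts, differences of the size seen here were mostly within the spread between libraries without the replicate block. That spread takes in the variation between replicate numbers. With the block the SE in wild-type coculture over cells grown alone was 0.19 instead of 0.45 for Nfkbia and 0.15 instead of 0.34 for Tnip1. For Vcam1 it was 0.58 instead of 0.51.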

Other observations

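Of the receptors that act upstream of NF-κB, Cd40 and Il1rl1 are described here, and the difference between them was not tested. Cd40, the receptor of CD40 ligand and a starter of the slower NF-κB branch, was at 0.704, 1.6 and 0.984 FPKM in cells grown alone. It was at 4.41, 7.63 and 3.5 FPKM in wild-type coculture and at 1.25 and 14.9 FPKM in BcatGOF replicates 1 and 2. The wild-type values lay wholly above those of cells grown alone, as for 6.35% of all genes, while BcatGOF replicate 1 lay within the range of cells grown alone. The log2 fold change was 1.53 in each coculture (SE 0.65 in wild-type and 0.72 in BcatGOF), with an adjusted p of 1 and 0.896 in limma.

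Il1rl1, which encodes ST2, the receptor of interleukin-33, was at 8.27, 10.52 and 1.08 FPKM in cells grown alone, 32.7, 22.0 and 26.5 FPKM in wild-type coculture and 27.3 and 140 FPKM in BcatGOF replicates 1 and 2. All 5 coculture libraries exceeded all 3 of cells grown alone. Of all genes 6.35% lay wholly above cells grown alone in wild-type coculture and 8.49% in BcatGOF coculture. The log2 fold change was 2.2 (SE 0.75) in wild-type and 3.38 (SE 0.84) in BcatGOF coculture, with an adjusted p of 0.859 and 0.894 in limma. Both genes were singled out from the 13 receptors after their values were seen.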
